A study of Mus musculus with 5 samples.

Results

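A set of 10 genes of the mature colon surface, Phgr1, Guca2a, Ceacam1, Ceacam20, Lypd8, Muc13, Mep1a, Vil1, Cdh17 and Fabp2, were followed across cultures of mouse colon spheroids. They were taken by name from a table of 32793 gene rows, and all 10 passed the filter on low counts, as 13501 genes did in all. The names were chosen with the comparison of mutant and wild-type cultures already known. The differences between genotypes in these 10 genes are therefore given as a description, and no test of them is used as support. Where a member is among the called genes this is stated, but it is not read as a result. RNA was sequenced in bulk from 5 libraries. Of these, 2 came from spheroids that carry dimerization-deficient alleles of both Notch1 and Notch2 (Notch1DD and Notch2DD, together NDD), and 3 came from wild-type spheroids (WT). Both groups have a mixed background, largely C57Bl6 with a part of FVB. The labels used here give no age or number of mice, and nothing says that the libraries of a group came from separate animals, so the spread between them may be technical. The series title places the comparison within the role of NOTCH dimerization in keeping the intestine in balance.

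Colonocytes arise from stem cells at the base of the crypt and mature as they move to the surface, where they form a brush border of microvilli and take up salt, water and nutrients. Notch signalling in the crypt favours the absorptive over the secretory fate. A Notch receptor acts in the nucleus with the DNA-binding protein RBPJ, and at certain paired RBPJ sites a pair of these complexes makes contact, which is the contact the NDD alleles remove. The genes described here encode products of the mature absorptive cell: a secreted hormone (Guca2a), glycoproteins of the apical surface (Ceacam1, Ceacam20, Lypd8, Muc13), parts of the brush border (Mep1a, Vil1), a lateral adhesion molecule (Cdh17), a fatty acid binding protein (Fabp2), and Phgr1, a small protein rich in proline, histidine and glycine.

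The cultures had the transcripts of colon epithelium. Total counts ranged from 19192389 to 23064000 per library. Notch1 and Notch2 were transcribed in every library (Notch1 at 55.1 to 69.1 CPM, Notch2 at 26.3 to 55.5 CPM, where CPM is counts per 1000000 with TMM-scaled library sizes). Counts per gene do not show which allele was transcribed. The summed level of 8 epithelial genes was 12365 to 13991 CPM of the unscaled totals. All 6 colon genes were present in every library, and their sum was higher in NDD (3670 and 2828 CPM) than in WT (1796 to 2506 CPM). Most of this sum came from Car1, whose groups overlapped. In 4 of the 6 colon genes both NDD libraries lay above all WT libraries, against 15.8% of all tested genes. The 7 genes of the small intestine summed to 0.786 to 4.12 CPM, with Apoa4 at 0. Markers of endothelium (0.217 to 0.447 CPM, Kdr and Emcn at 0) and of immune cells were near 0. The immune sum was 0.894 and 1.85 CPM in NDD and 2.24 to 5.03 CPM in WT. Of 10 fibroblast genes, Lum and Thy1 were at 0 and 6 had at most 3 counts in any library. The fibroblast sum was 9.12 and 25.5 CPM in NDD and 4.03 to 7.29 CPM in WT, most of it from Pdgfrb. The summed levels of secretory markers overlapped between the groups: goblet genes summed to 1346 and 1642 CPM in NDD and 782 to 1428 in WT, enteroendocrine genes to 49.97 and 67.6 against 58.0 to 93.1, and tuft genes to 0.670 and 2.31 against 1.83 to 6.98. Of the 8 goblet genes, 2 had both NDD libraries above all WT libraries, against 15.8% of all tested genes. Clca1, a secreted protein of goblet mucus, was at 367 and 477 CPM against 271, 259 and 136 CPM. Agr2, a chaperone of mucin folding, was at 185 and 249.8 CPM against 160.4, 160.7 and 129 CPM. Markers of cycling cells set 1 library apart: 12 genes summed to 1020 CPM in NDD replicate 2, against 2424 CPM in NDD replicate 1 and 2350 to 2691 CPM in WT, although in 5 of the 12 genes both NDD libraries lay below WT (16.2% of all tested genes). Stem markers were at 336 CPM in NDD replicate 2, 519.6 in NDD replicate 1 and 536 to 705 in WT. Both NDD libraries lay below all WT libraries in 4 of the 8 stem genes (Lgr5, Ascl2, Axin2 and Cd44) and in 16.2% of all tested genes, and edgeR called none of the 8. The other 4 overlapped, with log2 fold changes of 0.29 for Sox9, 0.11 for Smoc2, 0.05 for Rgmb and -0.19 for Lrig1. Lgr5, a receptor of crypt base stem cells, was at 2.32 and 1.40 CPM in NDD and 9.37, 7.34 and 8.66 CPM in WT (edgeR adjusted p 0.119). Ascl2, a transcription factor of these cells, was at 7.17 and 7.02 CPM in NDD and 16.0, 17.9 and 28.8 CPM in WT. The choice of these markers to name followed a look at their values, and the part of any marker list in the differences of the 10 genes was not tested.

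The control regions of these genes were examined first, because the mutation lies in a transcriptional complex. RefSeq start sites (GRCm38.p6) were given for 9 of the 10 genes, in 11 windows of 250 bases before the start, and 32851 such windows of all genes served as background. Each motif was searched on both strands as exact letters: TGGGAA for RBPJ, TTTAT for CDX, CAAAG for HNF4, CACCC for KLF, AGATAA for GATA and TATAAA for a TATA box, whose reverse can overlap the CDX letters. The RBPJ letters occurred once each in the windows of Ceacam20 and Vil1, so 2 of 11 windows held them, against 21.6% of all windows. Neither of those windows held a second RBPJ match. HNF4 letters were in 8 of 11 windows (48.6% of all windows), KLF letters in 4 (52.0%), CDX letters in 3 (37.3%), GATA letters in 2 (9.99%) and TATAAA in 0 (12.4%). A match of this kind is a description of the letters and not a binding site. The 4 windows printed here show the genes with RBPJ letters, Ceacam20 and Vil1, beside the hormone gene Guca2a and Phgr1. They are written from 5′ to 3′ on the strand of the gene, with every match to any of the 6 motifs in capitals.
Phgr1, chr2:118772524-118772773, plus strand: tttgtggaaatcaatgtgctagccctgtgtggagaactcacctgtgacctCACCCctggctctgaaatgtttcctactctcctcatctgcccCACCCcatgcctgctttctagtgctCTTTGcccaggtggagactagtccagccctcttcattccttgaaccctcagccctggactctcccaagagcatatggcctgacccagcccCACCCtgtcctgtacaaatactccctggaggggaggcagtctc
Guca2a, chr4:119637482-119637731, plus strand: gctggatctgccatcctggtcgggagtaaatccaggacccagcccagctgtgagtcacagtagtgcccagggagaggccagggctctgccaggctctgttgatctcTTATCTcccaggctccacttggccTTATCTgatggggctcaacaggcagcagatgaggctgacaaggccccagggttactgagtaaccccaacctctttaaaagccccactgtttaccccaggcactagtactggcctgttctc
Ceacam20, chr7:19965162-19965411, plus strand: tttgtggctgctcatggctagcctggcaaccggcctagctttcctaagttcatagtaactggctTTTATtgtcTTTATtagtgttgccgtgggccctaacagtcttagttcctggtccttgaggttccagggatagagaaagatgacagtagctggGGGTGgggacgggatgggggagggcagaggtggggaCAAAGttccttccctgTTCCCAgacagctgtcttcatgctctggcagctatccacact
Vil1, chr1:74409134-74409383, plus strand: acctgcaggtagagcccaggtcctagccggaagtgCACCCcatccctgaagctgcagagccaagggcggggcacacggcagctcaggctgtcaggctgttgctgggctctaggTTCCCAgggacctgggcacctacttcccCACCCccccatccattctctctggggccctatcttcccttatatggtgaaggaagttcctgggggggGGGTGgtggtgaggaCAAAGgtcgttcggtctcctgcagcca
Counting back from the start site, with -1 the last base shown, the RBPJ letters began at -42 in Ceacam20 and at -137 in Vil1, both on the opposite strand. The Guca2a window held 2 GATA matches, at -144 and -120, also on the opposite strand. Phgr1 had KLF letters at -200, -158 and -43 and HNF4 letters at -133.

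Across the 10 genes, every one was higher on average in NDD, from almost no difference in Ceacam1 to 3.51-fold in Guca2a. Their median log2 fold change was 0.998, where that of all 13501 tested genes was -0.0047. By CPM, both NDD libraries lay above all 3 WT libraries in 8 of the 10 genes, and 15.8% of all tested genes did so. By TPM (transcripts per 1000000, the authors' values scaled for transcript length) the count was 6, with 15.7% of all tested genes, because Vil1 and Fabp2 then overlapped with WT replicate 1. With edgeR's quasi-likelihood test, 12 of all tested genes (0.0889%) passed a Benjamini-Hochberg adjusted p of 0.05, of which 9 were higher in NDD (0.0667%) and 3 lower (0.0222%), and Phgr1 was the 1 member among them. Phgr1 was no longer called by edgeR with any 1 WT library left out, with the replicate block or with at least 10 counts required in every library. DESeq2 called 357 of all tested genes (2.64%), with 4 members among them (Phgr1, Guca2a, Ceacam20 and Lypd8). A log2 fold change of at least 1 was reached by 5 members and by 4.97% of all tested genes. No member had both NDD libraries below WT, against 16.2% of all tested genes. Since the members were picked from this contrast, nothing is read from these counts or from the calls of members. In bulk RNA, more cells of a type and more RNA per cell cannot be told apart.

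**Figure D1:**
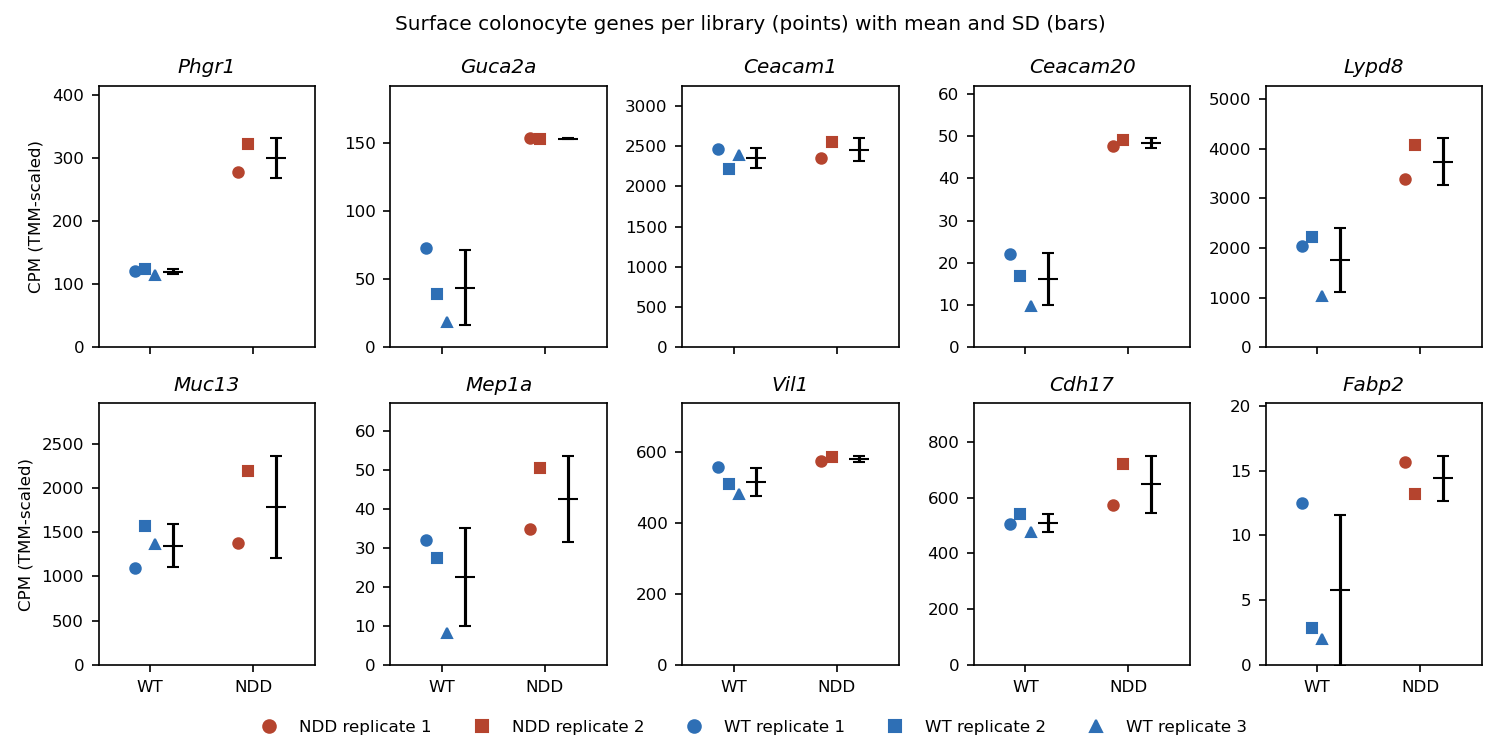
Level of each of the 10 genes in TMM-scaled CPM (linear axis from 0) in 3 WT and 2 NDD libraries, 1 point per library, with the mean and SD of each group beside the points (the SD bar of Fabp2 in WT is cut at 0). Phgr1 is tight in WT and higher in both NDD libraries, Ceacam1 is level, and Fabp2 in WT replicate 1 is close to the NDD libraries.

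Within WT, the levels of the 10 genes differed widely per length of transcript. Lypd8 was the most abundant, at 3256 ± 1154 TPM (SD, n = 3), followed by Ceacam1 at 1122 ± 77.9, Muc13 at 791 ± 134 and Phgr1 at 582 ± 12.9 TPM. Vil1 was at 285 ± 21.0, Cdh17 at 251 ± 11.3 and Guca2a at 199.9 ± 128 TPM. Far below came Mep1a at 13.3 ± 7.38, Fabp2 at 12.3 ± 12.5 and Ceacam20 at 9.66 ± 3.65 TPM. The WT libraries kept Lypd8, Ceacam1, Muc13, Phgr1, Vil1 and Cdh17 in this order with no overlap between neighbours, although the gap of Vil1 over Cdh17 was narrow (lowest Vil1 library 271 TPM, highest Cdh17 library 262 TPM). Cdh17 and Guca2a overlapped, as did Mep1a, Fabp2 and Ceacam20. Together the 10 genes made up 0.509 to 0.732% of all TPM in WT and 1.10 and 1.21% in NDD, with 38.0 to 56.8% of that from Lypd8 alone. In the mean order of the NDD libraries, Phgr1 (1408 TPM) stood above Ceacam1 (1161 TPM) and Guca2a (682 TPM) above Vil1 and Cdh17.

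**Figure D2:**
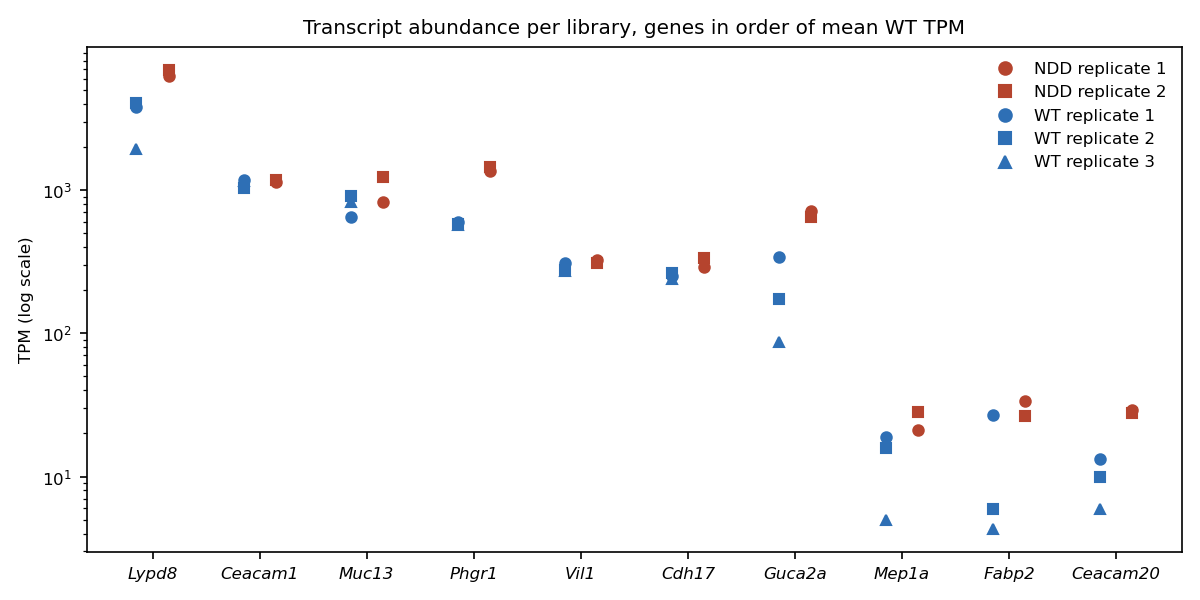
Transcript abundance in TPM (log axis) of the 10 genes in each library, ordered by their mean in WT, with WT on the left and NDD on the right of each gene. The genes fall into 7 with a WT mean from 199.9 TPM (Guca2a) to 3256 TPM (Lypd8) and 3 (Mep1a, Fabp2, Ceacam20) with a mean of at most 13.3 TPM.

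Phgr1 (chr2:118772769-118778165, plus strand, GRCm38, GENCODE M21, 4 exons in its longest coding transcript) is abundant in gut epithelium, and its molecular function is little known. Counts of 6365 and 6893 in NDD stood against 2345, 2823 and 2699 in WT, which is 278 and 323 CPM against 121, 124 and 116 CPM. The WT libraries were nearly level, with the highest 1.07 times the lowest, and both NDD libraries were more than 2.2 times the highest of them (2.24 for the lower). The log2 fold change was 1.32 (SE 0.12), a 2.50-fold difference. It was 1.22 without NDD replicate 2, the library low in cycling genes, and 1.29 to 1.42 without any other library. None of its 471 distinct 31-base stretches occurs in a transcript of another GENCODE gene.

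Guca2a (chr4:119637704-119639471, plus strand) encodes guanylin, a peptide released into the lumen that activates the receptor guanylate cyclase C and so drives salt and water secretion. It was at 153.4 and 153.1 CPM in NDD and at 73.2, 39.1 and 18.7 CPM in WT. The NDD libraries were nearly equal, whereas the highest WT library was 3.91 times the lowest. Its log2 fold change was 1.81 (SE 0.50), and it ranged from 1.45 without WT replicate 3 to 2.41 without WT replicate 1. The related peptide gene Guca2b (uroguanylin) was at 131 and 174 TPM in NDD and 126, 98.6 and 45.8 TPM in WT. Guca2a exceeded Guca2b in each library, by 5.42 and 3.75 times in the NDD libraries and by 2.69, 1.76 and 1.90 times in WT (TPM). The receptor gene Gucy2c was at 95.6 and 99.1 TPM in NDD and 85.0, 69.1 and 54.9 TPM in WT.

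Of the apical glycoproteins, Lypd8 and Ceacam20 had both NDD libraries above WT, and Ceacam1 and Muc13 overlapped. Lypd8 (chr11:58379043-58390728, plus strand) encodes a GPI-anchored protein that is shed into the lumen and binds flagellated bacteria. It was at 3400 and 4071 CPM in NDD and at 2036, 2233 and 1033 CPM in WT. On the log2 scale the difference was 1.08 (SE 0.33). Both NDD libraries were at least 1.52 times the highest WT library. Ceacam20 (chr7:19965412-19991104, plus strand), a microvillus protein of the carcinoembryonic antigen family with a cytoplasmic signalling tail, was at 47.6 and 49.2 CPM in NDD and at 22.001, 16.9 and 9.69 CPM in WT. The lower NDD library was 2.16 times the highest WT library, and the log2 fold change was 1.58 (SE 0.32).

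Ceacam1, from the same family, is an adhesion molecule of many epithelia and immune cells, and it was level across the series. This gene (chr7:25461707-25477603, minus strand) was at 2352 and 2555 CPM in NDD and 2460, 2214 and 2385 CPM in WT, with overlapping groups. Its log2 fold change was 0.06 (SE 0.13), and between 0.01 and 0.11 with any 1 library left out. Its paralog Ceacam2 holds 36.2% of the 31-base stretches of Ceacam1, so the division of reads between them is uncertain, but Ceacam2 had only 5 to 13 counts per library and the summed counts also gave 0.06. The noncoding gene 4732471J01Rik overlaps Ceacam1 on the opposite strand, and whether strand was used in counting is not given in the sources used here. In TPM, Ceacam20 was 0.0254 and 0.0237 times Ceacam1 in the NDD libraries and 0.0112, 0.00957 and 0.00509 times Ceacam1 in WT. Muc13 (chr16:33794037-33819934, plus strand), a transmembrane mucin of the glycocalyx, was at 1380 and 2194 CPM in NDD and at 1090, 1574 and 1367 CPM in WT. Only NDD replicate 2 stood above the WT range. The log2 fold change was 0.41 (SE 0.25), 0.05 without NDD replicate 2 and 0.70 without NDD replicate 1. The antisense gene Gm15657 overlaps Muc13.

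Of the genes of the brush border, Vil1 (chr1:74409376-74435559, plus strand) encodes villin, which bundles actin in microvilli, and it varied little. It was at 574 and 587 CPM in NDD and at 558, 509 and 482 CPM in WT. The NDD values lay just above WT, the lower of them 1.03 times the highest WT library, and the log2 fold change was 0.17 (SE 0.12). The 3′ end of Vil1 overlaps that of Usp37 on the opposite strand. Mep1a (chr17:43474324-43502812, minus strand) encodes the alpha subunit of the protease meprin. It was at 34.7 and 50.3 CPM in NDD and at 31.9, 27.5 and 8.19 CPM in WT, which gave a log2 difference of 0.92 (SE 0.53). The lower NDD library was only 1.09 times the highest WT library, and the log2 fold change was 0.52 without WT replicate 3. The gene of the beta subunit, Mep1b, was at 37.8 and 34.4 TPM in NDD and 32.6, 27.5 and 17.9 TPM in WT. In WT replicate 3 the TPM ratio of Mep1a to Mep1b was 0.276, where the other 4 libraries had 0.555 to 0.821.

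Cdh17 (chr4:11758147-11817895, plus strand), liver-intestine cadherin, joins the lateral membranes of gut epithelial cells. It was at 575 and 720 CPM in NDD and at 506, 542 and 476 CPM in WT. The log2 difference of 0.35 (SE 0.15) was 0.19 without NDD replicate 2. Fabp2 (chr3:122895072-122899506, plus strand), the intestinal fatty acid binding protein, is best known from the small intestine and was among the least abundant members here. It had 358 and 282 counts in NDD and 241, 65 and 46 counts in WT, or 15.7 and 13.2 CPM against 12.5, 2.86 and 1.97 CPM. WT replicate 1 was thus close to the NDD libraries and 6.32 times WT replicate 3. The log2 fold change of 1.33 (SE 0.75) became 2.58 without WT replicate 1. The antisense gene 4933405D12Rik spans Fabp2 on the opposite strand.

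**Figure D3:**
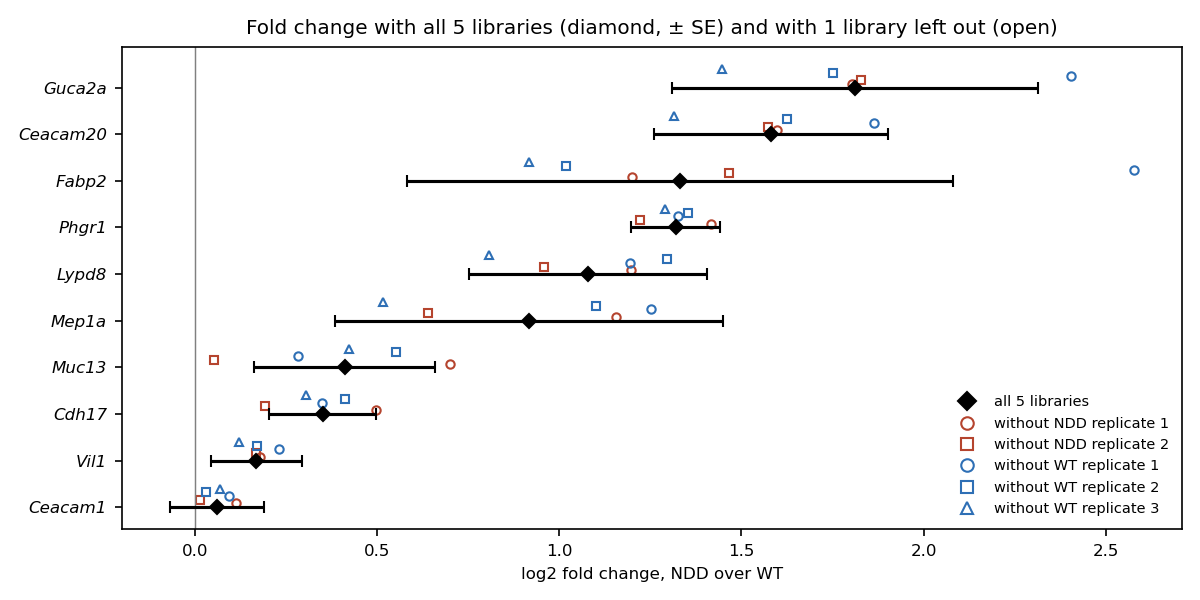
Log2 fold change of NDD over WT for the 10 genes from edgeR with all 5 libraries (diamond, bar = SE) and with 1 library left out (open symbols, colour for the group and shape for the replicate left out). All values are above 0, those of Phgr1 stay between 1.22 and 1.42, and those of Fabp2 spread from 0.92 to 2.58.

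Spread within a genotype divided the members in another way. Over the 3 WT libraries the log2 CPM of the members had a median range of 0.82, against 0.33 for all tested genes and 0.24 for tested genes with a mean log2 CPM of at least 4. The 91 tested genes of the related lists described below had a median range of 0.88, so a wide range was not particular to the members. The highest WT library was more than 2 times the lowest in 5 members (Guca2a, Ceacam20, Lypd8, Mep1a and Fabp2), against 14.2% of all tested genes. The other 5, Phgr1 with Ceacam1, Muc13, Vil1 and Cdh17, varied by 1.07 to 1.44 times. WT replicate 3 was the lowest WT library for 8 of the 10 members, and for 36.0% of all tested genes. Between the NDD libraries, replicate 2 was higher than replicate 1 in 8 of 10 members, in 74.7% of the 91 related genes and in 49.99% of all tested genes. Among the members, the largest difference was in Muc13 (log2 difference 0.67) and the largest in the other direction in Fabp2 (-0.24). Guca2a (153.4 against 153.1 CPM), Vil1 (log2 difference 0.03) and Ceacam20 (0.05) differed least between these libraries. Their cycling markers were at 2424 and 1020 CPM, and the part of cycling cells in the level of any member was not tested.

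Likeness of pattern was measured as the root mean square difference of log2 CPM over the 5 libraries after each gene was centred on its own mean. Genes found near another by this measure share its difference between genotypes by construction. Their levels in NDD and WT are thus a description and no separate result. The closest members were Ceacam1 and Vil1 (0.09), then Vil1 and Cdh17 (0.15), and the farthest were Muc13 and Fabp2 (1.27). Over 10557 genes with a mean log2 CPM of at least 2, the 5 nearest to Phgr1 were Tsga10, Lyplal1, Clec16a, Thbs4 and Crat, at distances from 0.09 to 0.13. The neighbours depended on the scale: on log2(TPM + 1) only 1 of these 5, Lyplal1, was among the nearest 5. Of the 5 on log2 CPM, Thbs4 (thrombospondin 4, a matrix glycoprotein) was at 339 and 375 CPM in NDD and 136, 180 and 139 CPM in WT. Crat, carnitine acetyltransferase, was at 99.2 and 102 CPM against 51.1, 43.7 and 40.02 CPM. The other members were much farther from Phgr1, with Lypd8 nearest at rank 178 (0.36) and Fabp2 last at rank 9300 (0.92). The mean profile of the 10 members was nearest to Ganc, Thrb, Lpo, Gm5088 and Epb41l3, at 0.06 to 0.09. Among them Lpo, lactoperoxidase, was at 361 and 358 CPM in NDD and 222, 183 and 123 CPM in WT.

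Genes with related roles were then compared in 7 lists, which name 106 genes. The lists were fixed with earlier results of these data known. Their values and shares are thus a description and no independent support for those of the members. The table holds 103 of the 106 genes, and 91 passed the filter. By edgeR's quasi-likelihood test 0 of the 91 were called (lowest adjusted p 0.207). An unadjusted p under 0.05 was found for 23 of the 91, against 11.2% of all tested genes. DESeq2 called 5 of them (Ceacam18, Muc3, Slc20a1, Slc5a8 and Xpnpep2), and 2.64% of all tested genes. Their median log2 fold change was 0.46, and 30 of 91 (33.0%) had both NDD libraries above all WT libraries, against 15.8% of all tested genes. The reverse held for 8 of the 91, against 16.2%. WT replicate 3 was the lowest WT library for 68 of the 91, as for 8 of the 10 members.

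Other surface colonocyte markers, 20 genes, had a median log2 fold change of 0.79, and 19 of 20 were above 0. The number called was 0 by edgeR and 2 by DESeq2 (Slc5a8 and Slc20a1), where DESeq2 called 2.64% of all tested genes. In 10 of 20 both NDD libraries lay above WT, against 15.8% of all tested genes. The most abundant were Lgals4 and Lgals3, sugar-binding galectins, and Car1, a carbonic anhydrase. Lgals4 was at 3819 ± 21.96 TPM in NDD (SD, n = 2) and 3157 ± 199 TPM in WT (SD, n = 3), which is 0.30 higher on the log2 scale (SE 0.13, edgeR adjusted p 0.46). Car1 was at 4847 and 2953 TPM in NDD and 3172, 3116 and 2311 TPM in WT, which overlap. Lgals3 overlapped as well (log2 fold change 0.39, SE 0.20). Krt20, an intermediate filament gene of surface cells singled out after its values were seen, was at 56.6 and 114 TPM in NDD and 32.5, 31.9 and 4.64 TPM in WT. WT replicate 3 was thus the lowest by far for Krt20, as it was for Mep1a. The water channel gene Aqp8, chosen in the same way, was at 79.3 and 213 TPM against 58, 47.1 and 8.09 TPM. Other genes of this list did not differ: Clca4a and Clca4b overlapped, with log2 fold changes of -0.003 (SE 0.77) and 0.07 (SE 0.43). Slc5a8 was at 36.1 and 42.3 TPM in NDD and 17.95, 12.3 and 8.42 TPM in WT (edgeR adjusted p 0.207). Without WT replicate 3 the median of the list was 0.51.

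The guanylin pathway, 5 genes, had a median of 0.73, with 4 of 5 above 0 and 0 called by edgeR or DESeq2. Guca2b was 0.80 higher in NDD on the log2 scale (SE 0.42, edgeR adjusted p 0.479), and Gucy2c 0.51 (SE 0.20, edgeR adjusted p 0.44). Cftr, the chloride channel that this pathway opens, was at 37.2 and 28.8 TPM in NDD and 31.7, 15.9 and 11.9 TPM in WT, which overlap. The median was 1.11 without WT replicate 1 and 0.45 without WT replicate 3.

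In the brush border cytoskeleton and adhesion list, 20 genes, the median was 0.26 and 15 were above 0. Here 6 genes had both NDD libraries above WT (15.8% of all tested genes) and 2 had both below (16.2%). Cdhr5, a protocadherin that links microvillus tips, was at 354 and 326 TPM in NDD and 249, 219 and 145 TPM in WT (log2 fold change 0.75, SE 0.24, edgeR adjusted p 0.413). Ezr, which ties actin to the membrane, and the myosin gene Myo1d were close to level, with log2 fold changes of 0.16 (SE 0.16) and 0.12 (SE 0.14). Vill, the villin-like paralog of Vil1, was at 8.87 and 11.9 TPM in NDD and 10.7, 15.1 and 29.3 TPM in WT, so its log2 difference was negative, at -0.78 (SE 0.43). The list median was -0.02 when NDD replicate 2 was left out, 0.51 when NDD replicate 1 was, and 0.16 when WT replicate 3 was.

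Brush border hydrolases, 12 tested genes of 15, had a median of 0.82, and 9 were above 0. Both NDD libraries were above WT in 3 (15.8% of all tested genes) and below in 2 (16.2%). The number called was 0 by edgeR and 1 by DESeq2, where DESeq2 called 2.64% of all tested genes. The called gene was Xpnpep2, an aminopeptidase, at 30.4 and 5.90 TPM in NDD and 3.48, 3.95 and 1.41 TPM in WT. Its log2 difference was 2.61 (SE 0.71, edgeR adjusted p 0.362). Mgam, a disaccharidase, was at 153 and 184 TPM in NDD and 199, 122 and 119 TPM in WT, which overlap. Mep1b was 0.50 higher in NDD on the log2 scale (SE 0.26, edgeR adjusted p 0.48). Dpep1, a dipeptidase, was at 13.6 and 43.8 TPM in NDD and 14.5, 8.51 and 1.18 TPM in WT. The list median was 0.22 without NDD replicate 2 and 0.53 without WT replicate 3.

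Relatives of the surface glycoproteins, 10 tested genes of 13 in the table, had a median of 0.86, with 7 above 0. The number called was 0 by edgeR and 2 by DESeq2 (Muc3 and Ceacam18), where DESeq2 called 2.64% of all tested genes. The list median differed with the NDD library used: it was 1.58 when replicate 1 was left out and -0.38 when replicate 2 was left out. In NDD replicate 2 all 10 genes were higher than in NDD replicate 1. Muc3, a transmembrane mucin like Muc13, was at 691 and 831 TPM in NDD and 379, 229.5 and 110.5 TPM in WT (log2 difference 1.53, SE 0.44, edgeR adjusted p 0.39). Ly6a, from the same protein family as Lypd8, was at 876 and 969 TPM in NDD and 986.5, 1167 and 1584 TPM in WT (log2 difference -0.40, SE 0.22, edgeR adjusted p 0.483). Muc1 ranged from 4.41 to 67.8 TPM within NDD alone.

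Fatty acid and lipid handling genes, 7 tested of 12, were divided, with 3 above 0 and 4 below, and 0 called by edgeR or DESeq2. Their median was -0.25, and 0.02 with the replicate number as a block. Acsl5, an acyl-CoA synthetase, was at 95.6 and 93.0 TPM in NDD and 103, 111 and 128 TPM in WT (log2 fold change -0.25, SE 0.13, edgeR adjusted p 0.481). Dgat1, which completes triglyceride synthesis, was at 28.4 and 32.7 TPM in NDD and 24.3, 25.2 and 23.2 TPM in WT (log2 fold change 0.32, SE 0.15, adjusted p 0.47). Fabp5 overlapped, and Fabp1, the liver-type paralog of Fabp2, had no counts in any library. With 0 counts, up to 0.156 CPM remains possible for the smallest library. This floor covers counting error only. Leaving out NDD replicate 2 gave a list median of -0.39, and leaving out WT replicate 3 gave -0.06.

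Transcription factors of absorptive differentiation, 17 tested genes of 18, had a median of 0.22, with 14 above 0 and 0 called by edgeR or DESeq2. The 3 most abundant were close to level on average. Cdx1, a homeobox factor of the gut, had a log2 fold change of 0.12 (SE 0.12), Klf5, a Krüppel-like factor of crypt cells, of 0.08 (SE 0.15) and Elf3, an epithelial ETS factor, of 0.06 (SE 0.29). Elf3 was at 312 TPM in NDD replicate 1 and 570 TPM in NDD replicate 2, on either side of the WT range of 380 to 498 TPM. Leaving out a library moved the median of this list to 0.46 (NDD replicate 1), -0.02 (NDD replicate 2) or 0.15 (WT replicate 3).

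**Figure D4:**
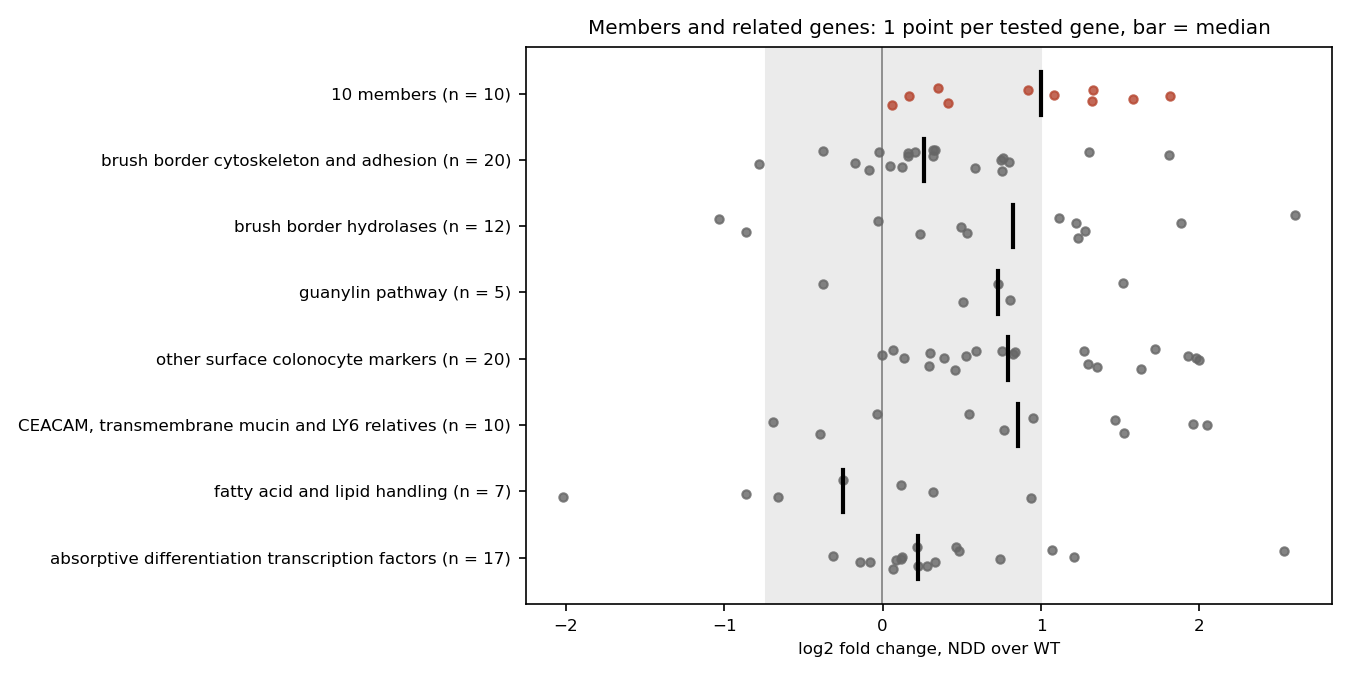
Log2 fold change of NDD over WT for the 10 members and for the tested genes of 7 related lists, 1 point per gene, with the median as a bar. The grey band runs from the 5th to the 95th percentile of all tested genes (-0.74 to 0.997) and the line marks their median. The medians of the surface marker, hydrolase and glycoprotein lists lie between 0.79 and 0.86, and that of the lipid list is -0.25.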

How the data were processed

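The members and lists were chosen with earlier results of these data known. RNA from 5 cultures of mouse colon spheroids was sequenced after a stranded mRNA library preparation, per the labels' protocols. The submitters' processing notes name Bowtie2, RSEM and mm10, without versions, and the annotation and strand setting are not given in the sources used here. The deposited estimated counts are whole numbers with no normalization, and 214 cells with a count of 0 have a TPM above 0. The authors' TPM values account for the length of each transcript and sum to 1000000 in a library. Each value column carries a sample title. The mutant titles read RA, which the labels do not explain, and these samples were taken as NDD from their genotype label.

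The deposited counts were read as estimated counts, since RSEM is named, and who rounded them is not given in the sources used here. They were tested with edgeR 4.0.16 (R 4.3.3, TMM, filterByExpr, robust quasi-likelihood fit, prior count 0.125), with Benjamini-Hochberg adjustment over 13501 genes. The SE was derived from the log2 fold change and the F statistic. Counts were simulated for NDD against WT (13305 genes fitted, 200 changed by 2 on the log2 scale). There edgeR recovered 78.0% of the changed genes, and 18 of its 174 calls were false. DESeq2 recovered 80.5%, and 44 of its 205 calls were false. Alternatives were RLE factors, DESeq2 1.42.0, other filters, limma 3.58.1 on log2(TPM + 1) or log2(TPM + 0.1), the replicate block, a prior count of 2, and leaving out each library. Named genes are the members, the 3 most abundant genes and any called gene of each list, partners of members, and the 5 nearest in pattern. Genes outside this rule are identified in the text. Gene positions are those of GENCODE M21 (GRCm38, the same assembly as mm10). Promoter windows are from RefSeq (GRCm38.p6), with none for Cdh17 there. Proteins were not compared.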

Additional observations from a re-analysis of the deposited data

How the results depend on the processing

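The number of called genes was 12 with the settings of the report, and 58 when no low-count filter was applied, 357 with DESeq2, 4 with at least 10 counts in every library, 33 with the replicate block, 21 with limma on log2(TPM + 1) and 21 on log2(TPM + 0.1). It ranged from 0 (without WT replicate 1, with 1211 genes at an unadjusted p under 0.05) to 1207 (without NDD replicate 1) when 1 library was left out. The cause of these differences was not tested. Leaving out an NDD library assumes that the remaining one varies like the WT libraries. Phgr1 was not among the called genes without any 1 of the WT libraries, with the replicate block or with at least 10 counts in every library. As Phgr1 was picked from this contrast, nothing is read from its calls under any setting. Of the 91 related genes, 0 were called with the settings of the report and 5 with DESeq2, and between 0 and 5 (without NDD replicate 1) with a library left out. Under 141 combinations of member and alternative all log2 fold changes stayed above 0, and 4 moved by more than 1 SD between replicates. With a library left out, the median of the members ranged from 0.66 (without WT replicate 3) to 1.22 (without WT replicate 1). NDD then lay above WT in 8 to 10 members and in 17.6 to 38.1% of all tested genes, and both the 10 and the 38.1% came without NDD replicate 1. Counting members that do not overlap under RLE-scaled CPM, TPM or with a library left out was added after seeing the data. Of the 5 genes nearest to Phgr1, 1 was shared on log2(TPM + 1).

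The groups share replicate numbers, but the labels do not say that a number marks a litter or batch, and the deviations of same-numbered libraries correlated at 0.027 and 0.27. Number 3 occurs only in WT, so the replicate block takes WT replicate 3 out of the comparison of genotypes. The block is therefore not a check separate from leaving that library out. With it the median of the members was 0.65 and the log2 fold change of Mep1a 0.50. Without WT replicate 3 and with no block these values were 0.66 and 0.52. The block also lowered the list medians for hydrolases (0.35), surface markers (0.44), the guanylin pathway (0.46), glycoprotein relatives (0.58), the cytoskeleton (0.14) and transcription factors (0.12). It turned the median of the lipid list to 0.02. On log2(TPM + 1) the median was 0.35 for the glycoprotein relatives and 0.44 for hydrolases. The lipid list median was -0.45 with at least 10 counts in every library and -0.04 with TPM of at least 1 in 2 libraries. Only 2 and 3 libraries per group limit the precision, and Fabp2 had the largest SE of the members (0.75).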
